A study of Homo sapiens with 3 samples.

Results

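ADAM and ADAMTS genes encode zinc-dependent metalloproteinases of the metzincin clan. This account covers 3 of them in a human liver cancer line, ADAM8, ADAM22 and ADAMTS6. They are among 6632 genes whose RefSeq rows were all present in the deposited table (complete rows). The 3 members were chosen by symbol. Each value is the sum of the gene's protein-coding RefSeq rows, whose accessions begin with NM_. RNA was sequenced from PLC cells in 3 libraries, 1 per group. Per the labels and the design text, HKDC1 was knocked down in the shHKDC1 library and RBBP5 in the shRBBP5 library, and the third library is labelled NTC. The knockdowns were made to ask whether HKDC1, a hexokinase-family protein, and RBBP5, a core subunit of the H3K4 methyltransferase complexes, regulate gene expression. All 3 groups share the parental line and its culture medium. The sources used here do not give the hairpins, their delivery, the time after it or whether the cells were a clone.

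ADAM proteins sit in the plasma membrane and carry a metalloproteinase and a disintegrin domain. Those with an active site release the outer parts of other membrane proteins, while those without one act as adhesion or scaffold receptors. ADAMTS proteins are secreted and cut components of the extracellular matrix through an active site of the same kind. In liver cancer such enzymes are studied as remodellers of the matrix and of the cell surface.

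ADAM8 is a membrane sheddase first described on leukocytes and also found in carcinoma cells. ADAMTS6 is a secreted protease that acts on microfibril proteins. ADAM22 is a catalytically inactive receptor best known in brain, where it binds LGI1 at synapses. The codons of the zinc-binding site are shown because they separate these roles. They come from GENCODE transcripts on GRCh38, written 5′ to 3′, with capitals on the codons of the 3 zinc-binding histidines and the catalytic glutamate or, in ADAM22, on the codons aligned to them.
ADAM8: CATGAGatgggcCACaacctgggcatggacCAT
ADAMTS6: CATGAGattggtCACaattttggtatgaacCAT
ADAM22: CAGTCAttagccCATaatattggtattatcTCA
The ADAM8 site lies in exon 11 at chr10:133271880-133271912 on the minus strand, at codons 334 to 344. The ADAMTS6 site is split over exons 9 and 10 within chr5:65300116-65329394 on the minus strand, at codons 403 to 413. The ADAM22 stretch lies in exon 13 at chr7:88134365-88134397 on the plus strand, at codons 372 to 382. Only 1 of its 4 capital codons encodes the residue found in ADAM8, in an alignment of 688 codons at 33.7% identity. The site is present in all 3 matched ADAM8 transcripts and in none of the 4 ADAM22 transcripts that could be matched.

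The libraries held 115556160 units in shHKDC1, 154533913 in shRBBP5 and 161750310 in NTC, where a unit is 1 estimated count as deposited. Anonymous assembled loci took 99.43% to 99.60% of the units. HKDC1 and RBBP5 had 0 rows of their own, so neither knockdown could be checked in the table. CPM is the library-scaled level, here of units after TMM scaling. Intervals in brackets are exact 95% intervals for counting error alone, taken on fragments under the assumption that 1 fragment is worth 4 units. With 1 library per group there was no test between groups and no difference has a replicate check. Of 21 hepatocyte markers only fibrinogen FGB had complete rows, at 0.600 CPM in shHKDC1, 2.30 in shRBBP5 and 2.41 in NTC. In bulk RNA fewer cells of a type and less RNA per cell cannot be told apart.

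ADAM8 was lowest in shHKDC1. It had 84 units (0.813 CPM [0.503 to 1.24]) in shHKDC1, 309 units (1.94 CPM [1.52 to 2.41]) in shRBBP5 and 267 units (1.52 CPM [1.19 to 1.94]) in NTC. The intervals of shHKDC1 and shRBBP5 did not overlap, and NTC overlapped both. The log2 ratio was −0.90 [−1.69 to −0.19] for shHKDC1 over NTC and 0.35 [−0.16 to 0.83] for shRBBP5 over NTC. ADAM8 was 2.37-fold lower in shHKDC1 than in shRBBP5 (log2 −1.25 [−2.02 to −0.54]). Of 4 blood markers, PTPRC, CD3E and MS4A1 were at 0 units in all 3 libraries. CD68 had no complete rows and could not be read.

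A gene was called higher or lower when its ratio was at least 2-fold and its interval excluded 0, among 898 genes with a mean of at least 1 CPM. ADAM8 and ADAM22 passed that filter and ADAMTS6, at a mean of 0.0262 CPM, did not. For shHKDC1 over NTC 0 of the 2 were called, where 23.7% of the 898 genes were lower and 8.69% higher. For shRBBP5 over NTC 0 of the 2 were called, against 9.35% of genes lower and 2.78% higher. In the direct comparison ADAM8 was called lower, as were 18.5% of all genes, while 12.5% were higher. The ADAM8 ratio to NTC in shHKDC1 was below the median of all measured genes (−0.40) but inside their middle range (−0.96 to 0.18), and 27.2% of genes had a lower ratio. In shRBBP5 87.0% of genes had a lower ratio than ADAM8, and in the direct comparison 11.8% did. The comparisons with NTC share that library. Scaling to total counts lowers every shHKDC1 to NTC ratio by 0.28, and with it ADAM8 passed the 2-fold line (−1.18). The same scaling gave 58 genes higher and 310 lower for shHKDC1 over NTC, in place of 78 and 213. It gave 84 higher and 230 lower for shHKDC1 over shRBBP5, in place of 112 and 166, where upper-quartile scaling gave 128 and 131.

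ADAM22 was lower in shHKDC1 than in the other libraries, by less than 2-fold. It had 545 units (5.27 CPM [4.42 to 6.23]) in shHKDC1, 1249 units (7.83 CPM [6.98 to 8.74]) in shRBBP5 and 1422 units (8.12 CPM [7.30 to 9.02]) in NTC. The shHKDC1 interval lay below the other two, which overlapped each other. The log2 ratio was −0.62 [−0.92 to −0.34] for shHKDC1 over NTC, −0.05 [−0.28 to 0.17] for shRBBP5 over NTC and −0.57 [−0.87 to −0.28] for shHKDC1 over shRBBP5. None of these reached the 2-fold line. Of the 898 genes, 39.4% had a lower ratio to NTC in shHKDC1, 62.4% in shRBBP5 and 31.3% had a lower ratio in the direct comparison.

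**Figure D1:**
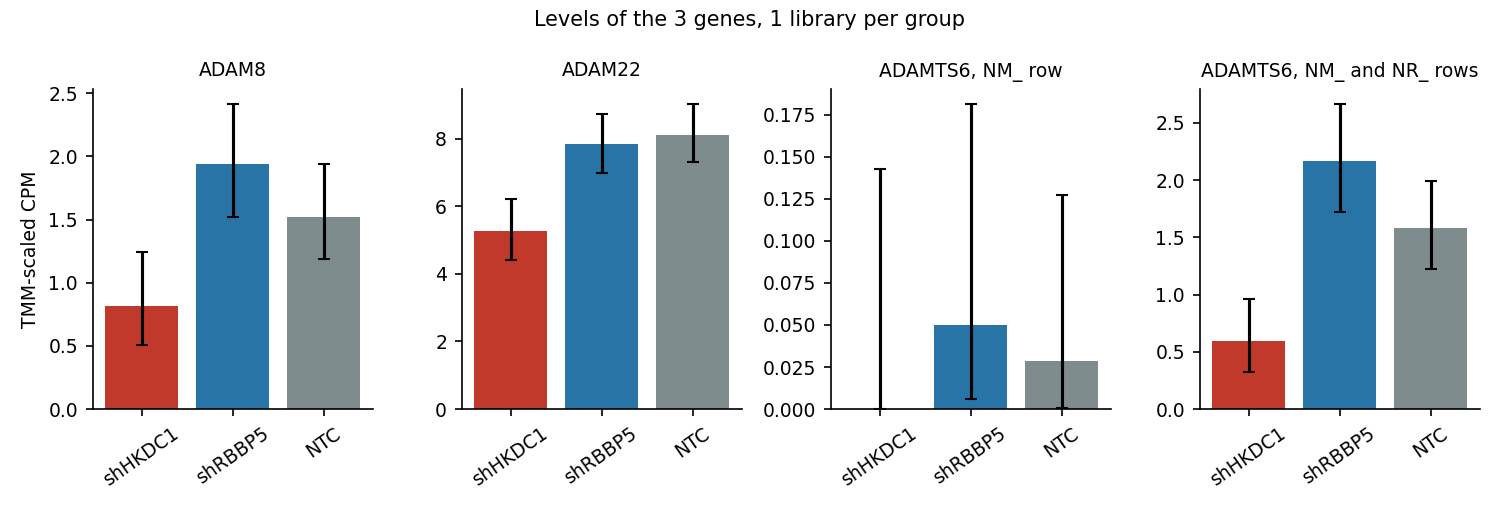
Level of each gene in TMM-scaled CPM (y axis, a separate scale per panel) in the shHKDC1, shRBBP5 and NTC libraries, 1 library per bar, with exact 95% intervals for counting error. ADAM8 stands at 0.813, 1.94 and 1.52 CPM, and the protein-coding row of ADAMTS6 stays at or below 0.0501 CPM, while its 2 RefSeq rows together reach 2.17 CPM in shRBBP5.

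ADAMTS6 was at the detection limit in its coding form. Its single NM_ row, NM_197941, held 0 units in shHKDC1, 8 in shRBBP5 and 5 in NTC, all under the limit of 12 units (3 fragments), so no ratio is given. The limit equals 0.116 CPM in shHKDC1, 0.0752 in shRBBP5 and 0.0685 in NTC. Nearly all units of the gene lay on NR_135689, a noncoding RefSeq row outside the choice of members. NR_135689 had 61 units (0.590 CPM [0.325 to 0.958]) in shHKDC1, 338 units (2.12 CPM [1.68 to 2.61]) in shRBBP5 and 272 units (1.55 CPM [1.21 to 1.97]) in NTC. The shHKDC1 interval lay below those of shRBBP5 and NTC, which overlapped.

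With both rows summed, ADAMTS6 was 2.66-fold lower in shHKDC1 than in NTC (log2 −1.41 [−2.35 to −0.62]) and 3.65-fold lower than in shRBBP5 (−1.87 [−2.79 to −1.09]). For shRBBP5 over NTC the ratio was 0.46 [−0.02 to 0.93]. Of the 898 measured genes, summed over NM_ rows alone, 23.7% were called lower for shHKDC1 over NTC. For shHKDC1 over shRBBP5 the share was 18.5%. NR_135689 matches a GENCODE transcript of 26 exons and 6956 bases that is annotated as a target of nonsense-mediated decay, the pathway that degrades messages with early stop codons. Its annotated frame ends after 292 codons, before the zinc-binding site shown above, whereas the frame of NM_197941 has 1117 codons and holds the site. The NR_ row carried 100% of the ADAMTS6 units in shHKDC1, 97.7% in shRBBP5 and 98.2% in NTC. How the counting divided reads between these overlapping transcripts was not tested.

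ADAM8 units came from 2 of its 3 rows. The longest form, NM_001109, had 43 units (0.416 CPM [0.213 to 0.762]) in shHKDC1, 309 (1.94 CPM [1.52 to 2.41]) in shRBBP5 and 201 (1.15 CPM [0.847 to 1.5]) in NTC. This row alone was 2.73-fold lower in shHKDC1 than in NTC (log2 −1.45 [−2.51 to −0.46]) and 4.61-fold lower than in shRBBP5 (−2.20 [−3.24 to −1.26]). For shRBBP5 over NTC it stood at 0.75 [0.23 to 1.3].

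The shorter form NM_001164490, whose frame of 733 codons keeps the zinc-binding site, had 41 units in shHKDC1, 0 in shRBBP5 and 66 in NTC. It made up 48.8% [25.7 to 70.2] of ADAM8 fragments in shHKDC1 and 24.7% [14.3 to 35.9] in NTC, shares whose exact binomial intervals overlap. In shRBBP5 it was 0 of 77 fragments, with an exact binomial upper limit of 4.68%. Its level was 0.397 CPM in shHKDC1 and 0.377 CPM in NTC (log2 0.08 [−1.22 to 1.31]). With 3 fragments in place of its 0 in shRBBP5, it was 5.01-fold lower there than in NTC. That fold leaves out the counting error of the NTC value. The third row, NM_001164489, was at 0 in all 3 libraries. The division of reads among the ADAM8 rows was not tested.

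ADAM22 spread over 18 rows, of which 7 held 0 units in every library and 7 passed 3 fragments in at least 1 library. NM_016351 was the largest, with 262 units (2.54 CPM) in shHKDC1, 696 (4.36 CPM) in shRBBP5 and 502 (2.86 CPM) in NTC. Its ratio to NTC was −0.17 [−0.62 to 0.27] in shHKDC1 and 0.61 [0.26 to 0.94] in shRBBP5. NM_021722 had 193 units (1.87 CPM) in shHKDC1, 272 (1.70 CPM) in shRBBP5 and 211 (1.20 CPM) in NTC, with ratios to NTC of 0.63 [0.02 to 1.21] and 0.50 [−0.04 to 1.04]. Neither of these large rows was lower in shHKDC1 than in NTC beyond counting error.

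The row NM_001391980 differed most. It held 0 units in shHKDC1, 119 (0.746 CPM) in shRBBP5 and 482 (2.75 CPM) in NTC, or 0%, 9.53% [6.58 to 13.4] and 33.9% [28.8 to 38.9] of ADAM22. With 3 fragments in place of 0, it was 23.7-fold lower in shHKDC1 than in NTC, leaving out the counting error of NTC. In shRBBP5 it was 3.68-fold lower than in NTC (log2 −1.88 [−2.49 to −1.28]). Without this row ADAM22 stood at 5.27 CPM in shHKDC1, 7.08 in shRBBP5 and 5.36 in NTC, and the ratios to NTC became −0.02 [−0.34 to 0.28] in shHKDC1 and 0.40 [0.14 to 0.65] in shRBBP5. With the row left out, shHKDC1 and NTC did not differ beyond counting error. The ratio of shHKDC1 over shRBBP5 remained at −0.42 [−0.73 to −0.13]. The row was chosen after seeing the data. Leaving out a row at 0 units in shHKDC1 can only raise the shHKDC1 ratios, so the direction of this change was fixed in advance. How the counting divided reads among the ADAM22 rows was not tested. A row at 0 in one library is common here: of 1013 transcript rows with at least 200 units in some library, from genes with several rows, 380 (37.5%) had 0 in another. After summing per gene, 11 of 923 genes that reached 200 units did so.

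NM_001391977 had 33 units (0.319 CPM) in shHKDC1, 109 (0.683 CPM) in shRBBP5 and 145 (0.828 CPM) in NTC, and was 2.56-fold lower in shHKDC1 than in NTC (log2 −1.36 [−2.72 to −0.28]). NM_001391975 had 45 units in shHKDC1, 0 in shRBBP5 and 53 in NTC. With 3 fragments in place of 0, it was 4.02-fold lower in shRBBP5 than in NTC, leaving out the counting error of NTC. The remaining 6 rows with any units held at most 28 each.

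**Figure D2:**
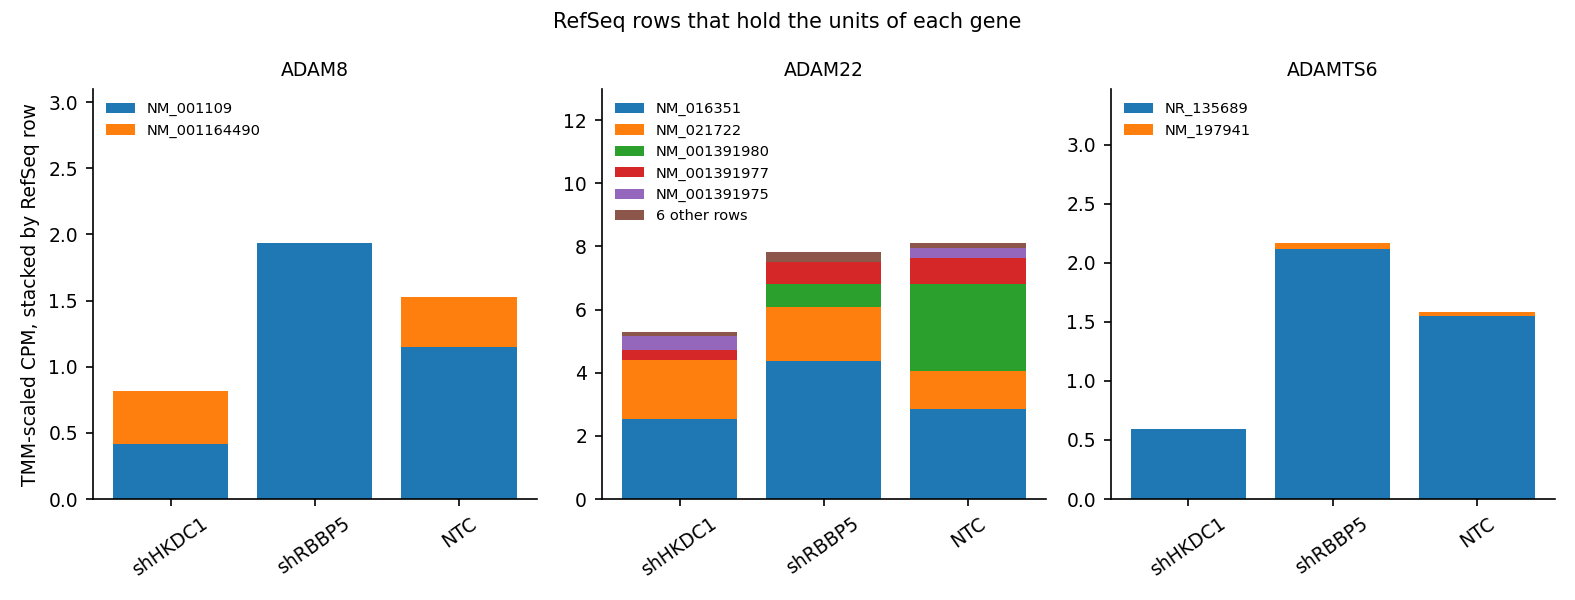
TMM-scaled CPM (y axis, a separate scale per panel) of ADAM8, ADAM22 and ADAMTS6 in the shHKDC1, shRBBP5 and NTC libraries, stacked by RefSeq row. NM_001391980 is absent from the shHKDC1 bar of ADAM22 and makes up 33.9% of the NTC bar, and NR_135689 makes up nearly all of each ADAMTS6 bar.

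The largest row of each gene was compared per kilobase of transcript, using GENCODE lengths. The ADAM22 row held 48.1% of its gene's units in shHKDC1, 55.7% in shRBBP5 and 35.3% in NTC. For the ADAM8 row these shares were 51.2%, 100% and 75.3%. The order given is therefore one of rows and not of whole genes. In shHKDC1 NM_016351 of ADAM22 stood at 0.272 CPM per kilobase [0.212 to 0.348], NM_001109 of ADAM8 at 0.127 [0.0648 to 0.232] and NR_135689 of ADAMTS6 at 0.0849 [0.0467 to 0.138]. There the ADAM22 row exceeded the ADAM8 row per length (log2 ratio 1.08 [0.14 to 2.15]), and the ADAM8 and ADAMTS6 rows did not differ beyond counting error (0.59 [−0.63 to 1.86]). In shRBBP5 the order was ADAM8 at 0.591 [0.465 to 0.736], ADAM22 at 0.467 [0.401 to 0.542] and ADAMTS6 at 0.305 [0.242 to 0.375]. The ADAM22 row over the ADAM8 row was −0.34 [−0.73 to 0.07], an interval that includes 0, and over the ADAMTS6 row it was 0.62 [0.24 to 1.02]. In NTC ADAM8 stood at 0.350 [0.258 to 0.459], ADAM22 at 0.307 [0.257 to 0.367] and ADAMTS6 at 0.223 [0.173 to 0.283]. The same ratios were −0.19 [−0.66 to 0.33] for ADAM22 over ADAM8 and 0.46 [0.03 to 0.91] for ADAM22 over ADAMTS6.

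RBBP5 belongs to complexes that methylate H3K4 at promoters, so the 100 bases before each RefSeq gene start are shown, with CpG sites in capitals (RefSeq, GRCh38.p14). No histone or methylation signal was measured in these files.
ADAM8, chr10:133276869-133276968, minus strand: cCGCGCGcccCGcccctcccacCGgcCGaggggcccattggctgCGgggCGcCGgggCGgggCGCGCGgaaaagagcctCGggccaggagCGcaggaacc
ADAM22, chr7:87934151-87934250, plus strand: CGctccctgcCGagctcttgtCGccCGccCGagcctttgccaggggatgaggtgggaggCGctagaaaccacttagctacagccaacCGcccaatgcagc
ADAMTS6, chr5:65481921-65482020, minus strand: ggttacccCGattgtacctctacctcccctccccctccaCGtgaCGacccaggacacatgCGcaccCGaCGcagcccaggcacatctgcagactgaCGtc
Over 250 bases upstream ADAM8 had 23 CpG sites, ADAM22 had 25 and ADAMTS6 had 8, where the median of 27305 promoters was 11. ADAM8 had more than 74.6% of promoters, ADAM22 more than 78.7% and ADAMTS6 more than 44.2%. The GC box GGGCGG, on either strand, occurred 3 times in the ADAM8 window, 2 times in that of ADAM22 and 0 times in that of ADAMTS6, and 42.3% of promoters held at least 1. The motif TATAAA, on either strand, occurred in none of the 3 windows and in 11.1% of promoters.

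The other metalloproteinases with complete rows were low. Anonymous loci held nearly all units, so these levels do not describe family genes without complete rows. Of 40 ADAM and ADAMTS symbols 30 had complete rows, of which 11 were at 0 in all 3 libraries, 15 passed 3 fragments in at least 1 library and 3 passed the CPM filter. The other 10, among them ADAM9, ADAM10, ADAM15 and ADAM17, were left out of these counts and sums. The summed level of the 13 ADAM genes was 6.76 CPM in shHKDC1, 10.0 in shRBBP5 and 9.90 in NTC, with ADAM22 making up 78.1%, 78.3% and 82.0%. The 17 ADAMTS genes, counted on NM_ rows, summed to 2.74 CPM in shHKDC1, 2.48 in shRBBP5 and 2.40 in NTC. ADAMTS7, a secreted protease, was the third to pass the filter, at 0.803 CPM in shHKDC1, 1.09 in shRBBP5 and 1.25 in NTC. It was not called (log2 −0.63 [−1.43 to 0.12] in shHKDC1 and −0.20 [−0.79 to 0.41] in shRBBP5 over NTC).

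With no CPM filter, 14 family genes passed 3 fragments in shHKDC1 or NTC, and 2 were called higher, 0 lower and 12 neither. Over all genes so tested 17.1% were higher and 15.6% lower. These low genes are named after their values were seen. ADAM12, a membrane protease of carcinoma and stroma, had 44 units in shHKDC1 against 22 in NTC (log2 1.75 [0.08 to 3.36]). ADAMTS2, the procollagen N-proteinase, had 72 units in shHKDC1 against 11 in NTC (3.42 [1.57 to 5.75]). Beside these, 4 endothelial markers summed to 0.765 CPM in shHKDC1, 0.163 in shRBBP5 and 0.137 in NTC, and only VWF was highest in shHKDC1. VWF had 73 units in shHKDC1, 3 in shRBBP5 and 3 in NTC, while PECAM1 had 4, 7 and 12, CDH5 had 2, 16 and 9, and KDR was at 0 in all libraries. The 4 stellate or fibroblast markers with complete rows summed to 1.54 CPM in shHKDC1, 1.75 in shRBBP5 and 0.879 in NTC, a sum carried by PDGFRB, with 153 units in shHKDC1, 249 in shRBBP5 and 106 in NTC. COL3A1 had 6, 26 and 42 units in the same libraries and DCN had 0, 4 and 6, while COL1A2 was at 0 in all. The part of either list in these ratios was not tested. For shRBBP5 over NTC 1 of 11 was higher and 0 lower, where 4.81% and 9.86% of genes were. That gene was ADAMTS16, at 61 units in shRBBP5 against 22 in NTC (1.59 [0.01 to 3.11]). Directly, 3 of 13 were higher in shHKDC1 than in shRBBP5 and 2 lower, where 21.8% and 13.2% of genes were. The 2 lower were ADAM8 and ADAMTS16 (−2.41 [−5.45 to −0.18]). The 3 higher were ADAM12 (1.75 [0.12 to 3.64]), ADAMTS2 (1.58 [0.40 to 2.96]) and ADAMTS8, which had 17 units in shHKDC1 and 0 in shRBBP5.

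Genes tied to the 3 members by lists of other proteases, inhibitors, substrates and partners were described next. Of 124 symbols on all lists 71 had complete rows and 9 passed the CPM filter, 7 of them besides ADAM8 and ADAM22. Of these 7, shHKDC1 over NTC gave 0 higher and 1 lower, where 8.69% of all 898 genes were higher and 23.7% lower. Their median ratio was −0.48 (log2), against −0.40 for all 898 genes. For shRBBP5 over NTC 0 were higher and 2 lower, against 2.78% and 9.35% of all genes, and the median was −0.44 against −0.20. For shHKDC1 over shRBBP5 1 was higher and 0 were lower, against 12.5% and 18.5% of all genes, and the median was −0.24 against −0.16.

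Among ADAMTS6 substrates and partners, fibrillin FBN2, a microfibril protein, was at 1.23 CPM in shHKDC1, 1.45 in shRBBP5 and 3.81 in NTC. FBN2 was called lower in both knockdowns (log2 −1.63 [−2.22 to −1.07] in shHKDC1 and −1.39 [−1.85 to −0.95] in shRBBP5). The growth factor BMP2 was at 3.19 CPM in shHKDC1, 1.33 in shRBBP5 and 3.91 in NTC. It was called lower in shRBBP5 than in NTC (−1.55 [−2.03 to −1.10]) and higher in shHKDC1 than in shRBBP5 (1.26 [0.74 to 1.78]). LTBP2, a microfibril-binding protein, was not called (−0.69 [−1.03 to −0.36] in shHKDC1 and −0.07 [−0.32 to 0.18] in shRBBP5).

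Among ADAM22 partners, the synaptic scaffold DLG3 was at 4.48 CPM in shHKDC1, 4.41 in shRBBP5 and 6.24 in NTC, and was not called (−0.48 [−0.80 to −0.16] and −0.50 [−0.78 to −0.22]). Its LGI ligands were below the CPM filter and are named after their values were seen. LGI1 had 0 units in shHKDC1, 20 in shRBBP5 and 8 in NTC, and was not called for shRBBP5 over NTC (1.41 [−1.15 to 4.85]). LGI2 had 8 units in shHKDC1, 158 in shRBBP5 and 75 in NTC. Past 2-fold without the filter, it was lower in shHKDC1 than in NTC (−2.39 [−5.63 to −0.43]) and higher in shRBBP5 (1.21 [0.39 to 2.08]). LGI4 had 30 units in shHKDC1, 95 in shRBBP5 and 128 in NTC (−1.31 [−2.57 to −0.09] and −0.29 [−1.11 to 0.53]). LGI3 had 38, 94 and 119 units, with neither ratio past the line.

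MMP14, a membrane-type collagenase, was at 1.92 CPM in shHKDC1, 1.55 in shRBBP5 and 2.11 in NTC, and was not called (−0.13 [−0.64 to 0.39] and −0.44 [−0.92 to 0.05]). SPOCK2, an extracellular proteoglycan of the testican family, was at 0.958 CPM in shHKDC1, 1.48 in shRBBP5 and 1.25 in NTC, and was not called either (−0.38 [−1.12 to 0.33] and 0.24 [−0.32 to 0.79]). MMP1, interstitial collagenase, had 48 units in shHKDC1, 0 in shRBBP5 and 4 in NTC, or about 1 fragment (4.19 [1.59 to 9.76] for shHKDC1 over NTC). VCAM1, an adhesion receptor shed by ADAM-type proteases, had 3 units in shHKDC1, 9 in shRBBP5 and 62 in NTC (−3.40 [−8.63 to −0.55] and −2.58 [−6.03 to −0.78]). MMP1 and VCAM1 lay below the CPM filter and are also named after their values were seen.

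**Figure D3:**
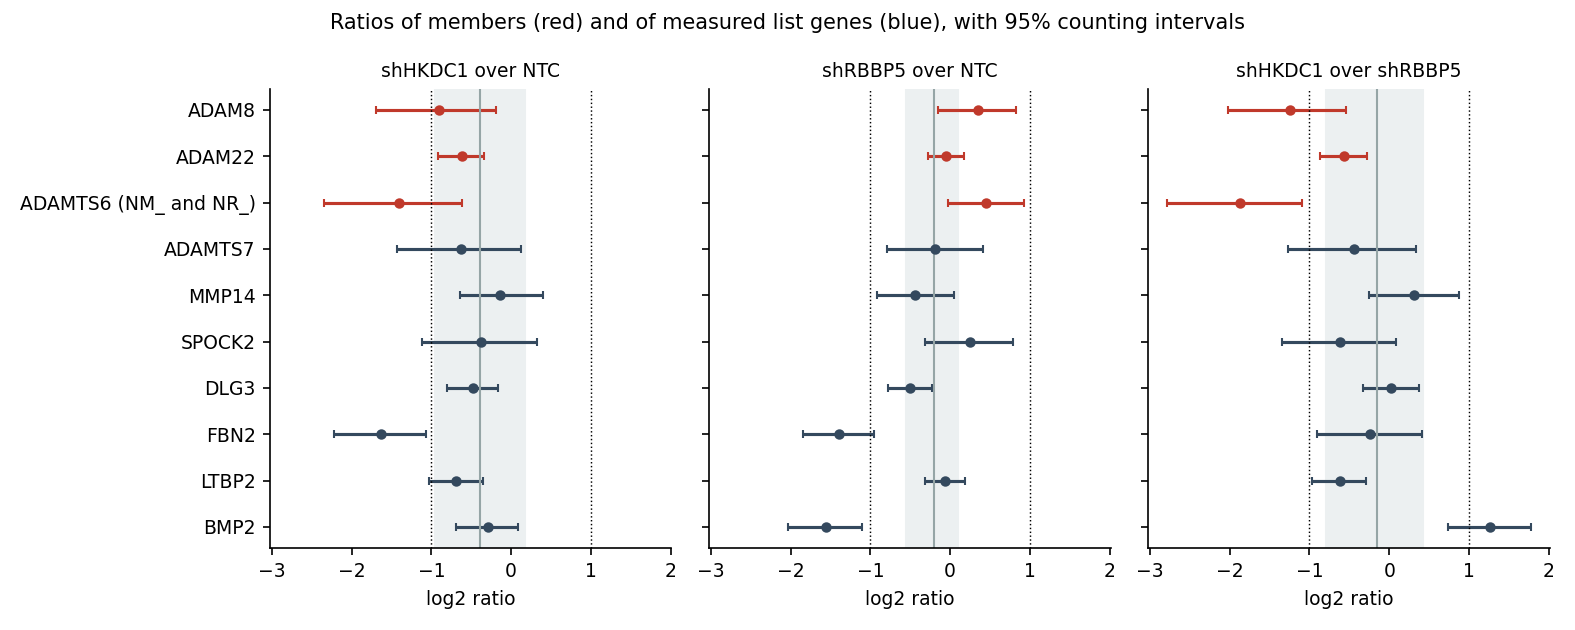
Log2 ratios (x axis) of the members in red and of the other measured list genes in blue for 3 comparisons, with exact 95% counting intervals. The grey line and band give the median and the quartiles of 898 genes, and dotted lines mark 2-fold. In the direct comparison ADAM8 (−1.25) and the summed ADAMTS6 rows (−1.87) lie past the lower 2-fold line and ADAM22 (−0.57) does not. In that comparison 18.5% of the 898 genes were called lower. The ADAMTS6 sum includes its NR_ row, whereas the 898 genes are sums of NM_ rows.

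The genes whose pattern was most like that of each member were those with the smallest distance between their 2 log2 ratios to NTC and those of the member, among 897 protein-coding genes over 3 libraries. For ADAM8 they were HCN3 (distance 0.03), DISP2 (0.09), SUSD2 (0.09) and FHDC1 (0.10). HCN3, a pacemaker-type ion channel, was at 4.25 CPM in shHKDC1, 9.83 in shRBBP5 and 7.81 in NTC. For ADAM22 they were ELAPOR2 (0.01), KSR2 (0.01), MAP3K7CL (0.06) and CEP57L1 (0.06). ELAPOR2 was at 4.62 CPM in shHKDC1, 6.93 in shRBBP5 and 7.15 in NTC. ADAMTS6 had no ratio on its NM_ row and was not placed.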

How the data were processed

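Total RNA from PLC cells was extracted with TRIzol, per the labels' protocols. Per the submitters' processing notes, the build was hg19 and the tools included StringTie 1.3.4, HISAT2 2.2.1 and DESeq2 1.28.1, with no roles stated. The authors deposited 1 table of estimated counts (expected counts), not scaled for library size or length, with columns named for NTC, shHD and shRB; shHD and shRB were read as short forms of shHKDC1 and shRBBP5. Which program counted, on which annotation and with which strand option is not given in the sources used here, so antisense reads cannot be told apart.

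The table has 43704 rows, 16301 of them anonymous loci. RefSeq accessions were matched without version to symbols of GRCh38.p14, for 27357 of 27403 rows, and NM_ rows were summed for the 6632 genes whose RefSeq rows were all present. Reads of a gene may also have been assigned to anonymous loci, which was not tested. Scaling by TMM (edgeR 4.0.16, R 4.3.3), on loci and summed genes, gave factors of 0.894 for shHKDC1, 1.03 for shRBBP5 and 1.08 for NTC. Log2 ratios used a pseudocount of 0.5 units, and intervals a conditional binomial (Clopper-Pearson) on units divided by 4 and rounded to whole fragments. That 4 units equal 1 fragment was assumed because low values pile up at 4 (525 rows of NTC, against 332 at 3 and 235 at 5). Level intervals are exact Poisson. The sources used here name no molecular identifiers and reads may repeat a molecule, so all intervals and limits cover counting error only, which leaves out any error in dividing reads between transcripts. The call rule was tested on simulated data that held counting error alone.

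The text names the 3 members with their rows, every list gene with a mean of at least 1 CPM, and the 4 nearest genes per measured member. Members and lists were chosen with earlier results of these data known. The other scalings, filters, pseudocount and row choices tried stand in the closing section. Zinc-binding codons were located in GENCODE v29 transcripts with Biopython 1.88, and other steps used Python 3.11.15 and SciPy 1.17.1. GENCODE lengths were matched to RefSeq accessions without version, for 10 of the 18 ADAM22 rows and all rows of ADAM8 and ADAMTS6.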

Additional observations from a re-analysis of the deposited data

How the results depend on the processing

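Direction and side of the 2-fold line held for every member ratio under DESeq2 size factors, upper quartiles, a pseudocount of 5, units taken as reads and leaving out the 20 most abundant rows. With total counts ADAM8 in shHKDC1 over NTC passed the line (−1.18). Taking the single NM_ row with the most units gave −1.45 for ADAM8 in shHKDC1 over NTC, and −0.17 and 0.61 for ADAM22 in shHKDC1 and shRBBP5 over NTC. Without NM_001391980, an alternative chosen after seeing the data, ADAM22 gave −0.024 and 0.40. The division of reads between this row and the others was not tested. Under both of these row choices the ADAM22 ratio of shRBBP5 over NTC changed sign from −0.05, a value within counting error of 0. The NM_ row of ADAMTS6, under the limit in all libraries, was given no ratio and was not tried under the other settings. For its NM_ and NR_ rows summed, the other scalings, pseudocount and reading of units were added after seeing the data, and gave −1.69 to −1.33 for shHKDC1 over NTC, 0.39 to 0.46 for shRBBP5 over NTC and −2.07 to −1.75 for shHKDC1 over shRBBP5. All RefSeq rows equal the NM_ rows for ADAM8 and ADAM22.

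Counts of called genes moved with the filter, in size and in the balance of higher and lower, and the cause was not tested. With no CPM filter shHKDC1 over NTC gave 438 higher and 398 lower in place of 78 and 213, shRBBP5 over NTC 119 and 244 in place of 25 and 84, and shHKDC1 over shRBBP5 543 and 329 in place of 112 and 166. With a mean CPM of at least 5 they were 2 and 46, 0 and 8, and 5 and 31. The other alternatives kept these counts within 1.5 times. No paired analysis was possible because each group has 1 library. Counts were small, with ADAM8 at 21 fragments in shHKDC1 and ADAMTS6 at no more than 2 on its NM_ row.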

Other observations

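Genes on the lists with only some of their RefSeq rows in the table were left out of the counts. ADAM23, an inactive ADAM that also binds LGI proteins, had 27 units on its row in shHKDC1, 40 in shRBBP5 and 14 in NTC, with log2 ratios to NTC of 1.69 [−0.41 to 3.79] and 1.62 [−0.34 to 3.58]. FBN1, fibrillin 1, had 40 units in shHKDC1, 92 in shRBBP5 and 89 in NTC, with ratios of −0.38 [−1.62 to 0.76] and 0.18 [−0.71 to 1.11]. All 4 intervals include 0.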
